A study of Mus musculus with 9 samples.

Results

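The integrin and laminin subunits were followed across 9 RNA sequencing libraries of neonatal mouse cardiac fibroblasts. They were chosen by the form of the gene symbol alone (Itga or Itgb and a number or a single letter, or Lama, Lamb or Lamc and a digit), which gave 35 of 34779 named genes. Of these, 6 are integrins expressed mainly in leukocytes, which are described apart, 18 are the other integrin subunits and 11 are laminin chains. Itga2b, the alpha chain of platelets, has a longer symbol and falls outside the rule, and Itgb7 was not analysed here. The authors deposited TPM values, which are length-corrected shares of the transcripts of a library, at the level of the gene, so that splice forms are not separated.

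All cells were wild type, were infected 24 h after seeding and were collected at day 14 in the same induction medium. The 3 DsRed libraries come from cells that received a virus for a red fluorescent protein and serve as the negative control. The 3 MGT libraries come from cells that received a virus for Mef2c, Gata4 and Tbx5, the cardiac transcription factors used to turn fibroblasts towards cardiomyocytes. The 3 MGT+TMP269 libraries received the same MGT virus and TMP269, a small molecule that blocks class IIa histone deacetylases, given in the labels as a blocker of HDAC4. The labels give no dose of TMP269, and no group had TMP269 without MGT, so the action of the compound on uninfected or DsRed cells was not measured. Replicates are numbered as biological, but no separate cultures or animals are named. A p-value here thus reflects how far libraries of the same group lie apart, as a spread shared by the 3 groups. That spread could be technical.

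The 6 fibroblast markers summed to between 3824 and 7217 TPM in DsRed, between 6303 and 6711 in MGT and between 2081 and 2167 with TMP269, and the 6 cardiomyocyte markers to between 179 and 304, 5211 and 5816, and 8575 and 9409. Within the fibroblast sum, carried by Col1a1 and Col1a2, Pdgfra (27.3 to 8.63 TPM), Tcf21 (482 to 182) and Dcn (578 to 350.1) were called lower in MGT than in DsRed and Thy1 (202 to 445) higher, while Col1a1 and Col1a2 were not called. Most of the cardiomyocyte sum was Tnnt2. Its mean and those of Myh6, Myl7 and Ryr2 were higher in MGT than in DsRed and higher again with TMP269. Actc1 was at 532 to 596 TPM in MGT and 484 to 590 with TMP269. Nppa was at 1.55, 39.0 and 9.49 TPM in DsRed, 23.5 to 25.1 in MGT and 362 to 437 with TMP269. In bulk RNA, fewer cells of a type and less RNA per cell cannot be told apart. The part of these shifts in any result below was not tested. DsRed replicate 2 stood apart, with Pearson's r of log2 values across genes between 0.942 and 0.943 against the other DsRed libraries, which had 0.973 with each other. The upper quartile of its TPM lay at 5.36, and those of the remaining 8 libraries at 8.66 to 9.54. Every count of calls below is therefore given with and without it. Read depth is unknown with TPM.

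Integrins are transmembrane receptors of an alpha and a beta chain that tie the cytoskeleton to the extracellular matrix, and the alpha chain largely sets the ligand. Laminins are cross-shaped trimers of an alpha, a beta and a gamma chain that form the sheet-like scaffold of basement membranes, the matrix that wraps each muscle cell. In the heart, cardiomyocytes contact laminin through integrin heterodimers with the Itgb1 chain and through dystroglycan, whereas fibroblasts also hold fibrillar collagen and fibronectin. A change of cell state can therefore alter both the receptors and the matrix chains they bind.

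MGT against DsRed asked what the factors did to these genes. The laminin receptor chains Itga6 and Itga7, the beta chain Itgb3 and the laminin chains Lama2 and Lamb2 rose, by between 2.19-fold and 3.45-fold in mean TPM, while Itgav and Lama5 fell. Of 27 members that passed the filter of a mean of 1 TPM over the 9 libraries, 5 were called higher and 2 lower at an adjusted p under 0.05 in limma, against 8.14% and 4.18% of the 13228 genes tested. Without DsRed replicate 2 the counts were 7 higher and 6 lower, against 12.5% and 13.6% of genes, and the 6 include Itgb8, which passed the filter through DsRed alone. The median log2 fold change of the 27 was 0.45, against 0.11 for all genes tested. The MGT and DsRed libraries did not overlap for 10 members that were higher and 3 that were lower in MGT, against 28.7% of all genes in either direction. The 10 include Itgax, which passed the filter through MGT alone, and the 3 include Itgb8, so nothing is read from these 2.

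TMP269 added to MGT asked what the inhibitor changed in reprogramming cells. The collagen receptor chain Itga11, the nephronectin receptor chain Itga8 and the leukocyte chains Itgam and Itgb2 fell. With 27 members tested, 1 was called higher and 4 lower by limma, against 3.32% and 5.97% of genes, or 9.29% in either direction. Without DsRed replicate 2, whose spread enters the shared error of the fit, 4 were called higher and 12 lower, against 19.3% and 11.3%. The median log2 fold change was −0.25 for the members and 0.11 for all genes. No overlap was seen for 8 members that were higher and 14 that were lower with TMP269, beside 49.3% of all genes.

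**Figure D1:**
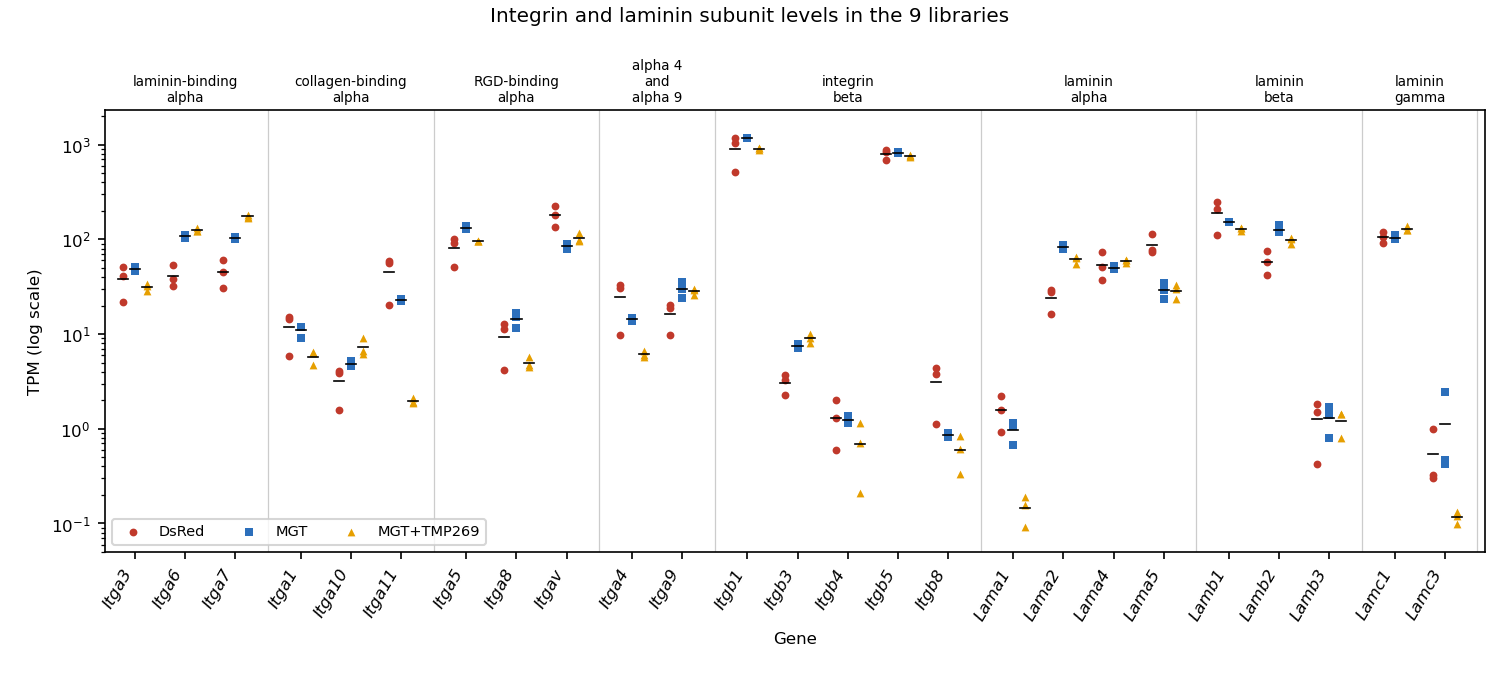
TPM of 25 integrin and laminin subunits that reached a group mean of 1 TPM, leukocyte integrins left out, on a log scale. Each point is a library and each bar the mean of 3. Itga11 lies near 2 TPM in all 3 MGT+TMP269 libraries, and Lama2 and Lama5 trade places between DsRed and MGT.

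The laminin receptors are considered first. Itga6, which pairs with Itgb1 or Itgb4, stood at 32.4, 54.1 and 38.1 TPM in the DsRed libraries, at 103, 110.5 and 109 in MGT and at 123, 121 and 131 with TMP269. All MGT libraries lay above all DsRed libraries, a 2.59-fold higher mean (log2 fold change 1.39 ± 0.17 SE, limma adjusted p = 0.000494). Itga7, the laminin receptor chain typical of skeletal and cardiac muscle, had 30.9, 60.8 and 45.1 TPM in DsRed, 107, 102 and 105 in MGT and 170.1, 174 and 183 with TMP269. The 3 groups did not overlap, and MGT was 2.29-fold above DsRed (limma adjusted p = 0.00318). The further 1.68-fold difference with TMP269 did not pass the test over all libraries (log2 fold change 0.74 ± 0.20 SE, limma adjusted p = 0.0535). It was called without DsRed replicate 2 (limma adjusted p = 0.00294) and without DsRed replicate 1 (limma adjusted p = 0.00767), and under median-ratio or quantile scaling of all libraries it was not called.

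Itga3, whose product binds the laminins of epithelia, moved differently. Its TPM was 40.7, 21.8 and 50.9 in DsRed, 45.8, 51.5 and 50.1 in MGT and 32.5, 28.8 and 33.8 with TMP269. The TMP269 libraries lay below all MGT libraries, and the fall was called without DsRed replicate 2 (limma adjusted p = 0.00325) but not with it (limma adjusted p = 0.205). Taken as a share of the summed TPM of the 12 alpha chains, the laminin-binding chains Itga3, Itga6 and Itga7 took 20.0%, 29.3% and 26.3% in DsRed, 44.6%, 46.2% and 45.2% in MGT and 56.7%, 56.9% and 56.3% with TMP269. The groups did not overlap in this share. The ratio of Itga7 to Itga6 was between 0.95 and 1.19 in DsRed, between 0.92 and 1.04 in MGT and between 1.39 and 1.43 with TMP269.

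**Figure D2:**
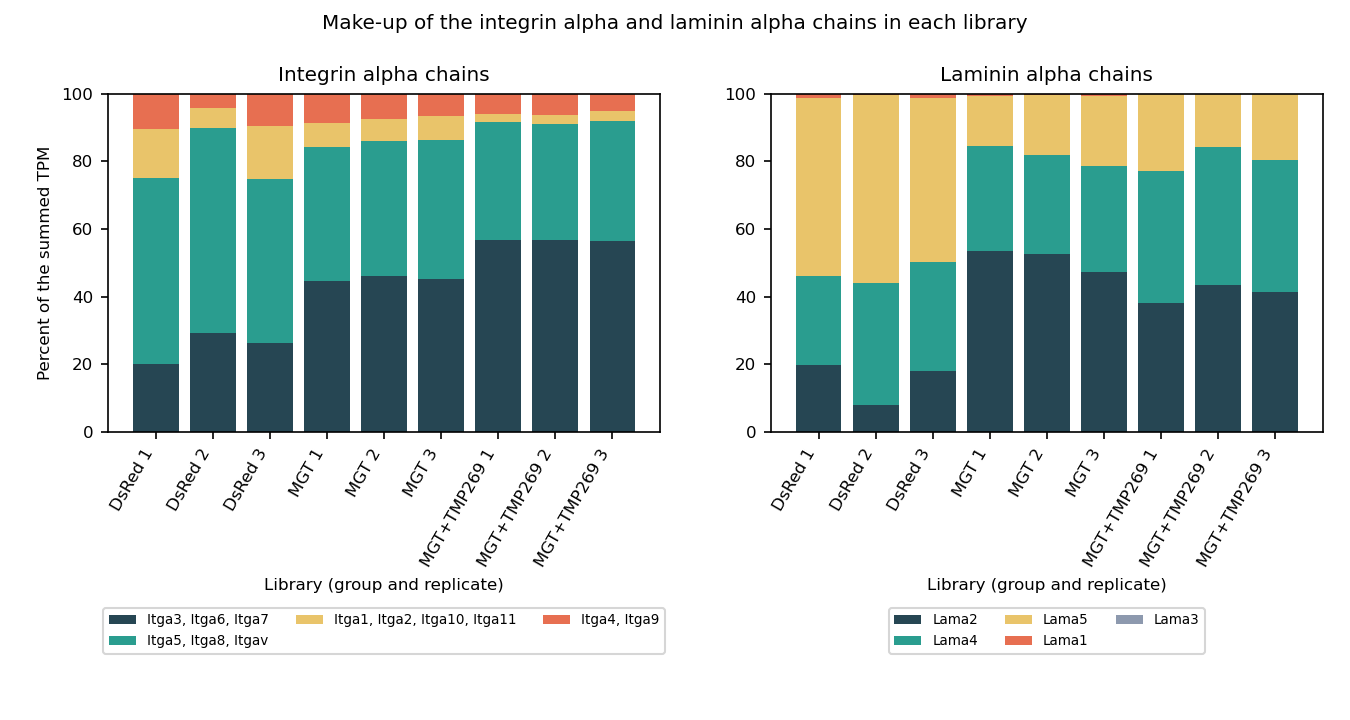
Share of each class in the summed TPM of the 12 integrin alpha chains without leukocyte subunits (left) and share of each chain in the summed TPM of the laminin alpha chains (right), in percent, 1 bar per library. The laminin-binding class grows from at most 29.3% in DsRed to at least 56.3% with TMP269, and Lama2 takes 47.2% to 53.5% in MGT against 7.95% to 19.7% in DsRed.

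Among the collagen receptors, Itga11, a receptor for fibrillar collagen made by fibroblasts, changed most with TMP269. It stood at 56.3, 20.0 and 59.6 TPM in DsRed, at 22.2, 22.3 and 23.5 in MGT and at 2.09, 1.86 and 1.93 with TMP269. The TMP269 mean of 1.96 ± 0.12 (SD, n = 3) was 11.6-fold below the MGT mean of 22.7 ± 0.685 (log2 fold change −3.00 ± 0.35 SE, limma adjusted p = 0.000789). MGT against DsRed turned on DsRed replicate 2, the only DsRed library below MGT. The log2 fold change was −0.82 with it (limma adjusted p = 0.183) and −1.32 without it (limma adjusted p = 2.06e-05).

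Itga1, which binds basement membrane collagen, had 14.5, 5.86 and 15.2 TPM in DsRed, 11.8, 9.15 and 11.8 in MGT and 4.68, 6.43 and 6.26 with TMP269. The TMP269 libraries lay below the MGT libraries, which was called without DsRed replicate 2 only (limma adjusted p = 0.00427, against 0.168 with it). Itga10, known from cartilage, was the exception of the class, with 3.91, 1.60 and 4.10 TPM in DsRed, 4.74 to 5.14 in MGT and 6.11 to 9.13 with TMP269. Its difference between TMP269 and MGT was not called over all libraries (log2 fold change 0.49 ± 0.28 SE) and was called without DsRed replicate 2 (limma adjusted p = 0.0414). Itga2, the collagen receptor chain of platelets and epithelia, did not pass the filter and reached at most 0.762 TPM. The class as a whole took 14.5%, 5.91% and 15.6% of the alpha TPM in DsRed, 6.43% to 6.95% in MGT and 2.36% to 2.83% with TMP269.

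The chains that bind the Arg-Gly-Asp (RGD) motif of fibronectin, vitronectin or nephronectin took 48.4% to 60.6% of the alpha TPM in DsRed, 39.7% to 41.2% in MGT and 34.3% to 35.6% with TMP269, without overlap. In MGT the mean of Itgav was below that of DsRed and the mean of Itga5 above it. Itgav, whose heterodimers bind vitronectin and can activate latent TGF-beta, had 183, 228 and 134 TPM in DsRed, 79.8, 88.5 and 86.4 in MGT and 99.7, 95.3 and 117 with TMP269. Every DsRed library lay above every other, and the MGT mean was 2.14-fold lower (log2 fold change −1.06 ± 0.18 SE, limma adjusted p = 0.00389). Itga5, the fibronectin receptor chain, was at 90.7, 51.3 and 102 TPM in DsRed, 133, 127 and 138 in MGT and 96.0, 95.3 and 97.1 with TMP269. MGT lay above the other groups, with a limma adjusted p of 0.0528 against DsRed, which became 0.00152 without DsRed replicate 2 and 0.0191 without DsRed replicate 3. Its TMP269 libraries lay below MGT, called without DsRed replicate 2 (limma adjusted p = 0.00103) and not with it (limma adjusted p = 0.263). The ratio of Itga5 to Itgav was 0.23 to 0.76 in DsRed, 1.44 to 1.67 in MGT and 0.83 to 1.00 with TMP269.

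Itga8, which pairs with Itgb1 as the receptor of nephronectin, had 12.7, 4.16 and 11.3 TPM in DsRed, 15.3, 11.5 and 16.8 in MGT and 4.69, 4.48 and 5.74 with TMP269. It fell 2.93-fold in mean TPM with TMP269, with no overlap with MGT (log2 fold change −1.37 ± 0.34 SE, limma adjusted p = 0.0371). The call was lost when any 1 of the 6 MGT or MGT+TMP269 libraries was left out, with an adjusted p of up to 0.141, and with no filter on low genes (limma adjusted p = 0.085), and it became 0.000453 without DsRed replicate 2. Between DsRed and MGT the mean of Itga8 went from 9.37 to 14.6 TPM, with overlap and not called (limma adjusted p = 0.255). The ligand Npnt, nephronectin, did not fall with TMP269 as Itga8 did. It went from 4.41 ± 2.17 TPM in DsRed to 36.0 ± 1.37 in MGT (SD, n = 3), 8.17-fold, and stood at 47.5 ± 4.06 with TMP269, where the difference from MGT was not called (limma adjusted p = 0.496).

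Of the chains that bind VCAM-1, tenascin-C or the alternatively spliced part of fibronectin, Itga4 had 33.2, 9.68 and 30.5 TPM in DsRed, 14.8, 13.6 and 14.7 in MGT and 5.67, 5.98 and 6.67 with TMP269. DsRed replicate 2 lay below all MGT libraries, and the other DsRed libraries lay above them. Without that library the MGT difference from DsRed was −1.09 (limma adjusted p = 0.000122, against 0.423 with it), and the TMP269 difference from MGT was −1.12 (limma adjusted p = 9.39e-05, against 0.115 with it). Itga9 had 20.4, 9.75 and 19.0 TPM in DsRed, 35.5, 29.6 and 23.9 in MGT and 25.7 to 29.7 with TMP269. All MGT libraries were above all DsRed libraries, with a limma adjusted p of 0.0636 that became 0.0322 without DsRed replicate 2 and 0.045 without DsRed replicate 1.

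The beta chains were dominated by Itgb1, the common partner of most alpha chains here, and Itgb5, which pairs with Itgav. Itgb1 was at 1162, 509.8 and 1050 TPM in DsRed, 1186, 1172 and 1174 in MGT and 877, 923 and 923 with TMP269. Its TMP269 libraries lay below all MGT libraries, with a log2 fold change of −0.37 that was called without DsRed replicate 2 (limma adjusted p = 0.000813) and not with it (limma adjusted p = 0.458). Itgb5 had 834, 681 and 878 TPM in DsRed, 838, 809 and 809.5 in MGT and 758, 771 and 746 with TMP269, and neither comparison was called, with or without that library. Its log2 fold changes were 0.05 ± 0.11 SE for MGT and −0.11 ± 0.11 SE for TMP269.

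Itgb3, another partner of Itgav, went the other way from Itgav. It had 3.27, 2.27 and 3.68 TPM in DsRed, 7.13, 7.78 and 7.72 in MGT and 7.98, 9.07 and 10.1 with TMP269. MGT was 2.45-fold above DsRed with no overlap (log2 fold change 1.08 ± 0.19 SE, limma adjusted p = 0.00412). Itgb8, a further partner of Itgav in TGF-beta activation, was at 4.39, 1.11 and 3.83 TPM in DsRed, at 0.809 to 0.898 in MGT and at 0.331 to 0.834 with TMP269. It passed the filter through DsRed alone, the group where it is high, so its differences from DsRed are given as values and nothing is read from its test. Itgb4, the partner of Itga6 in the hemidesmosomes of epithelia, stayed between 0.208 and 2.02 TPM and was not called in any comparison. Itgb6, an epithelial chain, was under the filter with at most 0.517 TPM.

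The laminin alpha chains changed places. Lama2, the alpha chain of the basement membrane of muscle, had 27.6, 16.2 and 28.9 TPM in DsRed, 85.0, 86.9 and 78.8 in MGT and 55.2, 65.1 and 64.1 with TMP269. MGT was 3.45-fold above DsRed (log2 fold change 1.79 ± 0.20 SE, limma adjusted p = 0.000305). With TMP269 all libraries lay below MGT and above DsRed, and the fall from MGT was called without DsRed replicate 2 (limma adjusted p = 0.00483) and not with it (limma adjusted p = 0.25). Lama5, a chain of epithelial and vessel basement membranes, had 73.5, 113 and 77.2 TPM in DsRed, 23.4, 29.2 and 34.4 in MGT and 33.0, 23.5 and 30.0 with TMP269. Every DsRed library was above the others, and the MGT mean was 3.03-fold lower (log2 fold change −1.56 ± 0.21 SE, limma adjusted p = 0.000966). TMP269 and MGT overlapped for it.

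As a share of the laminin alpha TPM, Lama2 took between 7.95% and 19.7% in DsRed, between 47.2% and 53.5% in MGT and between 38.1% and 43.5% with TMP269. Lama5 took between 48.5% and 55.5% in DsRed, between 14.7% and 20.6% in MGT and between 15.7% and 22.7% with TMP269. Lama4, known from vessel walls and from heart and skeletal muscle, was at 37.1, 73.5 and 50.9 TPM in DsRed, 49.1, 48.3 and 52.5 in MGT and 56.5, 61.0 and 60.2 with TMP269, and neither comparison was called, with or without DsRed replicate 2. Lama1, the alpha chain of the early embryo, did not pass the filter, with 1.60, 0.921 and 2.21 TPM in DsRed, 0.678 to 1.14 in MGT and 0.0927 to 0.190 with TMP269. Lama3, the alpha chain of the laminin that anchors the epidermis, reached at most 0.260 TPM.

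Among the beta chains, Lamb2, found in muscle, at the neuromuscular synapse and in the kidney filter, had 57.3, 41.8 and 74.8 TPM in DsRed, 140.4, 119 and 121 in MGT and 105, 101 and 89.7 with TMP269. MGT was 2.19-fold above DsRed, without overlap (log2 fold change 1.15 ± 0.19 SE, limma adjusted p = 0.00338), and the lower level with TMP269 was called without DsRed replicate 2 only (limma adjusted p = 0.0487, against 0.328 with it). Lamb1, the widespread beta chain, was at 208, 112 and 247 TPM in DsRed, 153 to 154 in MGT and 123 to 132 with TMP269. Its MGT difference from DsRed depended on the control libraries. It was −0.56 without DsRed replicate 2 (limma adjusted p = 0.00117), −0.22 with all libraries (limma adjusted p = 0.63) and 0.0086 without DsRed replicate 3. The ratio of Lamb2 to Lamb1 was 0.28 to 0.37 in DsRed, 0.77 to 0.91 in MGT and 0.68 to 0.85 with TMP269. Lamb3, the beta chain of epidermal laminin, stayed between 0.423 and 1.83 TPM and was not called.

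Of the gamma chains, Lamc1, the gamma chain of most laminins, was at 106, 90.6 and 119.8 TPM in DsRed, 100.2, 110.2 and 102 in MGT and 125, 125 and 140.1 with TMP269, and its difference between TMP269 and MGT was called without DsRed replicate 2 (log2 fold change 0.31, limma adjusted p = 0.0159) and not with it (limma adjusted p = 0.174). Lamc3 was under the filter, with 2.47 TPM in MGT replicate 2 and at most 1.00 elsewhere.

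**Figure D3:**
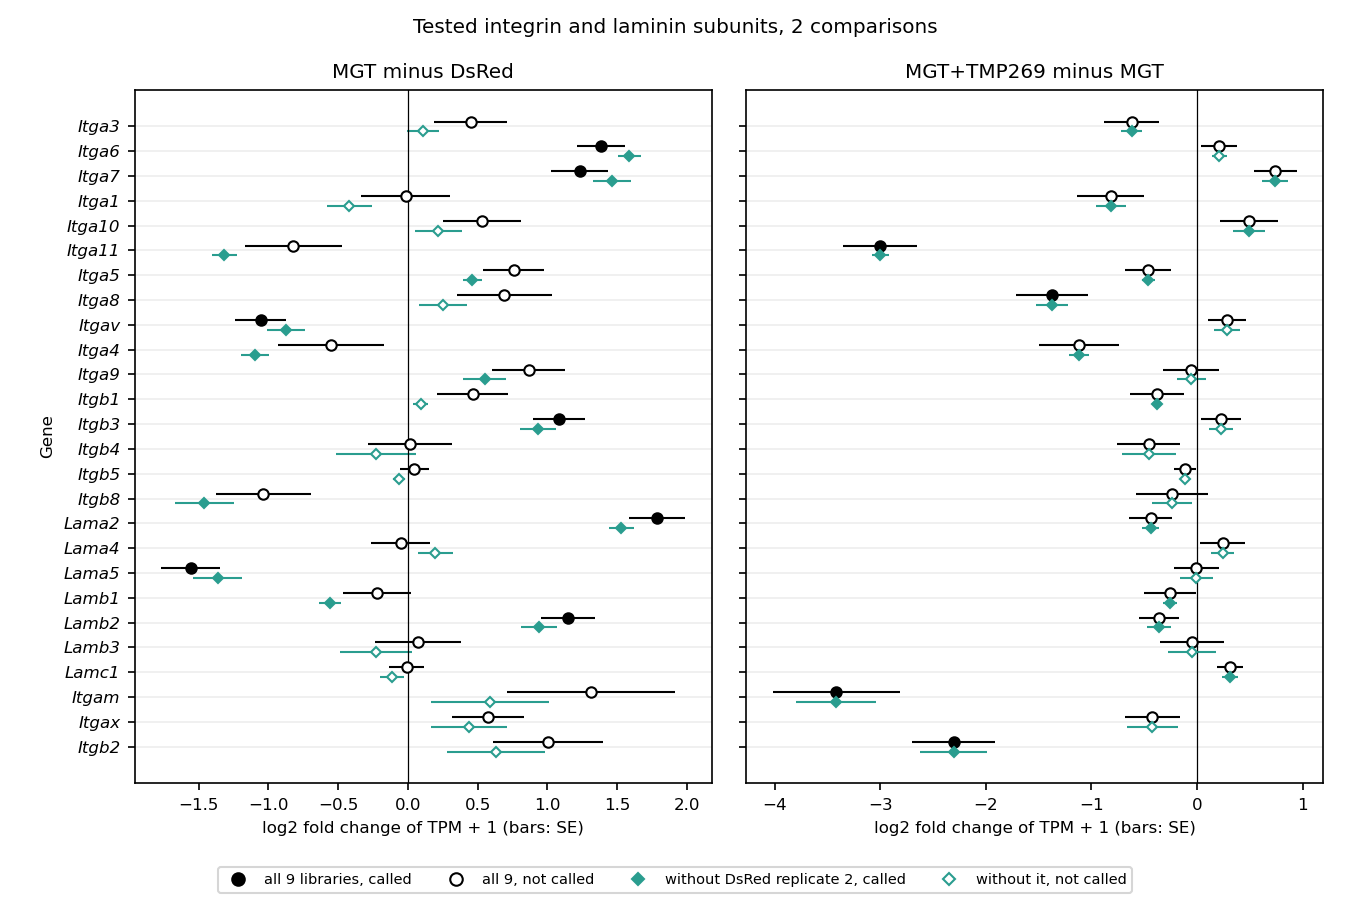
Log2 fold change of TPM + 1 with its SE for 26 of the 27 tested members in MGT against DsRed (left) and MGT+TMP269 against MGT (right), from all 9 libraries (circles) and without DsRed replicate 2 (diamonds), filled where called. Lama2, Itga6 and Itga7 lead the called rises on the left with either set, and Itgam, Itga11 and Itgb2 lead the falls on the right.

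To show the sequence in front of these genes, promoter windows from RefSeq (GRCm38.p6) are given for members that moved with TMP269 (Itga11 and Itga8), for both laminin chains that rose with MGT (Lama2 and Lamb2), and for Itga10, chosen after the search as the window with a MEF2 match. Each holds the 250 bases before and 50 bases after the annotated start, 5′ to 3′ on the strand of the gene, and capitals mark a match to a searched motif. Windows matched by symbol, with a chromosome left out of the search for members, were used for 21 of the 35 members. The motifs searched on both strands were the MEF2 consensus, AGATAA and TGATAA for GATA factors (which differ in their first letter and cannot share a site), AGGTGT for T-box factors and TGANTCA for AP-1.
Itga11 (chr9:62677605-62677904, plus strand): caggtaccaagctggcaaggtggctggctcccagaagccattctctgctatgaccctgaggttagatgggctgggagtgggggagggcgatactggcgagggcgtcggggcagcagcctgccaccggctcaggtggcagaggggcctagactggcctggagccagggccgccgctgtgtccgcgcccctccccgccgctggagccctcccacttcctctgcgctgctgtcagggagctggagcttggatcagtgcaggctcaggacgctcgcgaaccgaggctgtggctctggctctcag
Itga8 (chr2:12301895-12302194, minus strand): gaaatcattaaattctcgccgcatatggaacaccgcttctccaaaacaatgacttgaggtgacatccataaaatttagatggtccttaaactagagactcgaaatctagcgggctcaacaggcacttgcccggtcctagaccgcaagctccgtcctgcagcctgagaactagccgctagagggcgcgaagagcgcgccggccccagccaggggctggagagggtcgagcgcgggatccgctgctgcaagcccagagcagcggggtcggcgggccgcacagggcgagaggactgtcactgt
Lama2 (chr10:27616893-27617192, minus strand): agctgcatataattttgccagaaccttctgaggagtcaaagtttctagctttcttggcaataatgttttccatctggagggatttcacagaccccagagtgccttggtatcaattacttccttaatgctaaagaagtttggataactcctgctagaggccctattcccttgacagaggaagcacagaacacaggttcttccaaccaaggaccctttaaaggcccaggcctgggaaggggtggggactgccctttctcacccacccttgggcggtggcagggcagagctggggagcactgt
Lamb2 (chr9:108479612-108479911, plus strand): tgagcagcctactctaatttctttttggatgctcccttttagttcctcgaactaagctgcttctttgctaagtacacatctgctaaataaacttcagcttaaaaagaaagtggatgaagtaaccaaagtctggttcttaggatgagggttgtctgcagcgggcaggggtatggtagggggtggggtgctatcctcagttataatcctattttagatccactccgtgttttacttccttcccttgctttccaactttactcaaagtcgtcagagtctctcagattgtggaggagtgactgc
Itga10 (chr3:96645334-96645633, plus strand): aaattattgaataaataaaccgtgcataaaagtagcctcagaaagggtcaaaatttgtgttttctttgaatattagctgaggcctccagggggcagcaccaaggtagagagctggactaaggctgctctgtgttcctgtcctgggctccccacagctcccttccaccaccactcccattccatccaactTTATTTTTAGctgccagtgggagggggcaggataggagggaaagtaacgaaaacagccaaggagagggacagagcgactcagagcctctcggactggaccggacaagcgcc

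The Itga10 window holds a MEF2 consensus match 61 bases before the start, TTATTTTTAG, and the other 4 windows shown hold none of the searched motifs. Over all windows of the 21 members, of which Itga3, Itgb6 and Lamb3 have more than 1 each, the MEF2 consensus was found in 1 window. The share over all windows is given next. Matches to other motifs were found in Itga3 (AP-1 and T-box, in different windows), Itga9 (AP-1), Itgax (GATA and AP-1), Itgb6 (T-box) and Lamb3 (T-box). Over 32851 windows of the same length, 3.19% hold the MEF2 consensus, 11.2% AGATAA, 9.05% TGATAA, 13.7% AGGTGT and 7.81% TGANTCA. The windows of Itga11 and Lamb2 differ in base composition, with 68.0% and 44.0% GC. These matches are letters in a window and no measurement of binding.

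The leukocyte integrins are products of blood-derived cells. Itgb2 is the beta chain shared by most alpha chains of this family, and Itgam is its partner on macrophages and neutrophils. Itgb2 stood at 6.73, 4.28 and 15.7 TPM in DsRed, at 16.5, 12.1 and 22.9 in MGT and at 2.28, 2.28 and 3.24 with TMP269. The TMP269 mean was 6.60-fold below MGT, with no overlap (log2 fold change −2.30 ± 0.39 SE, limma adjusted p = 0.00612). Itgam had 7.88, 2.27 and 23.6 TPM in DsRed, 23.4, 14.8 and 27.5 in MGT and 0.813, 0.970 and 1.53 with TMP269, 19.9-fold below MGT (log2 fold change −3.42 ± 0.60 SE, limma adjusted p = 0.00699). Neither was called between MGT and DsRed, where DsRed replicate 3 lay within the range of MGT for both.

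Macrophage markers moved with these chains. All 10 of the macrophage list were in the table and tested, and none was at 0. With TMP269 against MGT 10 of 10 fell, with or without DsRed replicate 2, against 5.97% and 11.3% of all genes with and without it. Their summed level was 625 to 1759 TPM in DsRed, 1656 to 3127 in MGT and 94.0 to 139 with TMP269. Between MGT and DsRed 1 of the 10 was called higher, and 0 without DsRed replicate 2, against 8.14% and 12.5% of all genes. The part of macrophages in the values of Itgb2 and Itgam, or of Itga4 above, was not tested. The 6 markers of T and B lymphocytes summed to at most 1.39 TPM. The remaining leukocyte chains were low. Itgax was at 0.682, 0.431 and 1.14 TPM in DsRed, 1.43, 1.50 and 1.79 in MGT and 0.441, 1.01 and 1.45 with TMP269, passed the filter through MGT alone and was not called. Itgal, the partner of Itgb2 on lymphocytes, had 0.391 to 1.10 TPM in DsRed, 1.03 to 2.10 in MGT and 0.249 to 0.343 with TMP269, under the filter. Itgad reached 1.08 and Itgae 0.178 TPM. Itgam, Itgax and Itgad are neighbours on chromosome 7, with 0 protein-coding genes between them.

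**Figure D4:**
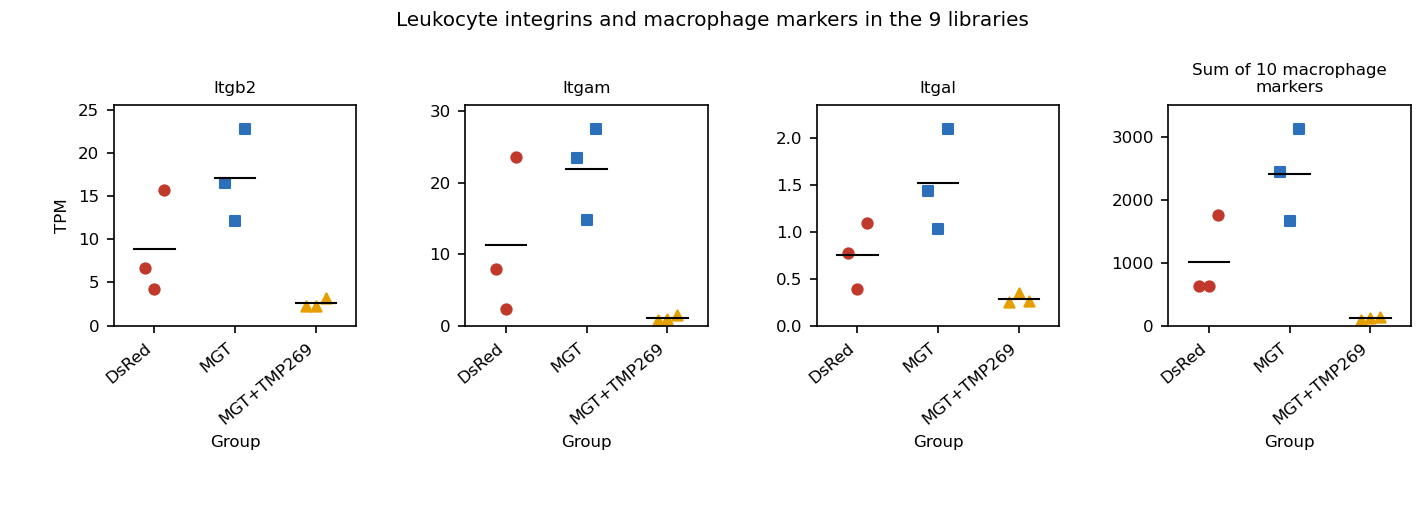
TPM of Itgb2, Itgam and Itgal and the summed TPM of 10 macrophage markers, by group, with 1 point per library and a bar at the mean of 3. Each panel has its own scale from 0. The MGT+TMP269 libraries lie at 2.28 to 3.24 TPM for Itgb2 and at 94.0 to 139 TPM for the marker sum, below every library of the other groups.

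TMP269 with MGT against DsRed shares its libraries with both comparisons above and is given beside them. Limma called 7 members higher (Itga6, Itga7, Itga10, Itgb3, Lama2 and Lamb2 among them) and 7 lower (Itga4, Itga11, Itgam, Itgav, Itgb2, Itgb8 and Lama5), against 14.7% and 8.06% of genes. Of the 7 lower, Itgb8 passed the filter through DsRed alone. Groups did not overlap for 9 members that were higher and 7 that were lower, Itgb8 again among them, beside 41.9% of all genes. Without DsRed replicate 2 the counts were 9 and 13, against 21.3% and 15.2%. The median log2 fold change of the members was 0.03, against 0.22 for all genes. Itga11 was the member with the largest difference, at −3.82 ± 0.35 SE (limma adjusted p = 5.26e-05), beside −0.82 for MGT against DsRed and −3.00 for TMP269 against MGT. Lama5 was −1.56 in both comparisons with DsRed and −0.0050 for TMP269 against MGT. Leaving out 1 library at a time kept the calls of Itga4, Itga6, Itga7, Itga11, Itgb3, Lama2 and Lama5. The limma adjusted p reached 0.105 for Itga10, 0.101 for Itgam, 0.0609 for Itgav, 0.121 for Itgb2 and 0.0663 for Lamb2.

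The partners of laminin in the basement membrane were followed as a list of 22, of which 19 were tested. With MGT, 7 rose and 1 fell, against 8.14% and 4.18% of all genes (7 and 5 without DsRed replicate 2, against 12.5% and 13.6%), with a median log2 fold change of 0.26. Nid2, a nidogen that links laminin to type IV collagen, went from 50.1 ± 9.17 to 1210.0 ± 69.7 TPM (SD, n = 3), 24.2-fold (limma log2 fold change 4.58 ± 0.14 SE). The other nidogen, Nid1, had 131, 32.2 and 112 TPM in DsRed. Its mean was 36.3 ± 2.35 TPM in MGT and 26.2 ± 1.11 with TMP269 (SD, n = 3). In DsRed replicate 2 it lay below all MGT libraries. With all libraries, Nid1 was called lower for TMP269 against DsRed and was not called in the other comparisons. Ntn4, a netrin that binds laminin gamma chains, rose 7.21-fold to 153 ± 5.58 TPM, and Col4a3, a type IV collagen chain, went from 0.435 to 14.1 TPM. With TMP269 against MGT, 1 rose and 5 fell, against 3.32% and 5.97% (5 and 8 without DsRed replicate 2, against 19.3% and 11.3%), with a median of −0.07. Col15a1 and Col18a1, basement membrane collagens with cleavable endostatin-type ends, fell 7.93-fold and 4.29-fold. Mean TPM in DsRed, MGT and MGT+TMP269 was 9.25, 54.5 and 6.87 for Col15a1 and 14.5, 18.7 and 4.37 for Col18a1. Smoc1, a matricellular calcium-binding protein, went from 5.20 to 0.894 TPM, beside a mean of 26.4 in DsRed. Nid2 stood at 1644 ± 72.1 TPM with TMP269, not called against MGT (limma adjusted p = 0.0819).

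Laminin also has receptors other than integrins. Their list holds dystroglycan with its associated complex and glycosylation enzymes, and Bcam and Rpsa, which are no part of that complex. Of 17 tested genes, 7 rose with MGT and 0 fell, against 8.14% and 4.18% of all genes (10 and 3 without DsRed replicate 2, against 12.5% and 13.6%). An unadjusted p under 0.05 was found for 12 of the 17 and for 3296 of all 13228 genes, and the median was 0.80. Bcam, the Lutheran glycoprotein, was among the 7, at 19.2 ± 3.45 TPM in DsRed and 51.9 ± 3.90 in MGT (SD, n = 3). Dtna, the dystrobrevin of muscle, rose 3.51-fold and Dmd, dystrophin, rose 3.24-fold to 31.7 ± 3.39 TPM. With TMP269 against MGT, 2 rose and 2 fell, against 3.32% and 5.97% (6 and 2 without DsRed replicate 2, against 19.3% and 11.3%), with a median of 0.07. Sgcd, a sarcoglycan, fell 2.79-fold from 15.0 to 5.39 TPM. Dag1, dystroglycan itself, had 117 ± 51.3 TPM in DsRed, 222 ± 8.46 in MGT and 340 ± 17.4 with TMP269, without overlap between groups and with limma adjusted p of 0.0559 and 0.288 for the first and second step.

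Inside the cell, 34 tested genes of the talin, kindlin and focal adhesion linkers held 5 that rose and 0 that fell with MGT, against 8.14% and 4.18% of all genes (9 and 8 without DsRed replicate 2, against 12.5% and 13.6%). An unadjusted p under 0.05 was found for 10 of the 34, beside the 3296 of 13228 genes given above, and the median was 0.11, the value of all genes. Kank1, which binds talin at adhesion rims, rose 4.79-fold to 117 ± 2.18 TPM, Flnc, the filamin of muscle, rose 2.20-fold to 99.4 ± 7.13, and Itgb1bp2, melusin, a muscle protein that binds the Itgb1 tail, went from 0.177 to 1.80 TPM. With TMP269 against MGT, 1 rose and 2 fell, against 3.32% and 5.97% (8 and 6 without DsRed replicate 2, against 19.3% and 11.3%), with a median of 0.06. Bcar1, the adhesion adaptor of the Cas family, rose 1.51-fold to 89.4 ± 5.90 TPM. Fermt3, the kindlin of blood cells, fell 5.30-fold, and Lpxn, leupaxin, a paxillin relative of blood cells, went from 5.43 to 0.875 TPM, both beside the fall of the macrophage markers given above.

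Of integrin ligands other than laminins and collagens, 23 were tested. With MGT, 6 rose and 5 fell, against 8.14% and 4.18% of all genes (7 and 12 without DsRed replicate 2, against 12.5% and 13.6%), with a median of −0.08. Npnt rose as given above, Thbs4, a thrombospondin, went from 0.102 to 3.58 TPM, and Tnc, tenascin-C, a ligand of Itga9 and Itgav heterodimers, fell 5.04-fold to 24.7 ± 1.53 TPM. With TMP269 against MGT, 1 rose and 9 fell, against 3.32% and 5.97% (2 and 15 without DsRed replicate 2, against 19.3% and 11.3%), with a median of −0.57 against 0.11 for all genes. Spp1, osteopontin, fell 31.8-fold to 32.7 ± 3.61 TPM, Postn, periostin, fell 7.26-fold to 99.8 ± 4.85, and Tgfbi, a ligand with RGD-type sites, fell 5.08-fold. Spp1 in the MGT libraries was 889, 682 and 1545 TPM, where the macrophage marker sum was 2433, 1656 and 3127, and their relation was not tested.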

How the data were processed

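RNA of 9 libraries was analysed from 1 table of TPM values that the authors deposited, with 1 row per gene. The tools kallisto and DESeq2 and the build mm9 are named, per the submitters' processing notes. Versions, roles, the annotation and the strand setting were not given in the sources used here. The 25 of 34804 lines with a date in place of a symbol (0.123% to 0.176% of TPM) were left out, and no 2 libraries were identical (0 pairs). limma 3.58.1 in R 4.3.3 was fitted to log2(TPM + 1) of the 13228 genes with a mean of at least 1 TPM over all libraries, with the group as its only term, a variance trend and two-sided tests. Log2 fold changes are on this scale and understate the change of low genes. Adjusted p-values are Benjamini-Hochberg over all genes tested, called under 0.05. Folds are ratios of mean TPM, given where both means are at least 1. Members passing the filter were 27, and 8 did not. The members and lists were chosen with earlier results of these data known. Members were described, apart from items withheld and not reported here, with the 3 called genes of largest absolute change of each list in each of the first 2 comparisons and genes that a sentence on a member turns on, such as Npnt and Dag1. Ntn4, Nid1 and the single cardiomyocyte markers were added after their values were seen. Alternatives were another pseudocount, no filter, other scalings, array weights, a replicate block, fewer groups and leaving out each library. TPM keeps no depth, so no counting interval is given.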

Additional observations from a re-analysis of the deposited data

How the results depend on the processing

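The 7 members called in MGT against DsRed kept their direction and call under every alternative, as did Itga11, Itgam and Itgb2 in TMP269 against MGT. Leaving out 1 library at a time gave, for MGT against DsRed, 5 to 8 members higher, 2 to 6 lower and 1065 to 3468 genes called. It gave 1 to 4, 3 to 12 and 626 to 4060 for TMP269 against MGT, and 5 to 9, 3 to 13 and 1865 to 4851 for TMP269 against DsRed. The highest gene counts came without DsRed replicate 2. For MGT against DsRed, members lower went from 2 to 4 under median-ratio scaling, 4 under quantile scaling and 6 with array weights, and genes called from 1630 to 2915 with array weights and 1058 with only the compared groups fitted. For TMP269 against MGT, members lower went from 4 to 10, 8, 13 and 13 under median-ratio scaling, quantile scaling, array weights and only the compared groups, members higher from 1 to 6 and 7 under the last 2, and genes from 1229 to 4818 and 4511. For TMP269 against DsRed, members lower went from 7 to 12 with array weights and 3 with only the compared groups, and genes from 3016 to 1782 with the latter. The cause was not tested. Among members called in a comparison with all libraries, or in the first 2 without DsRed replicate 2, the sign changed for Lamb1 in MGT against DsRed, at 0.008579 without DsRed replicate 3 (range −0.5608 to 0.008579 with 1 library left out). Without DsRed replicate 2 the sign also changed for Itgb4 (0.02 to −0.23), Itgb5 (0.05 to −0.06), Lama4 (−0.05 to 0.20) and Lamb3 (0.07 to −0.23) in MGT against DsRed and for Itgb1 (0.09 to −0.28) and Lamb3 (0.03 to −0.28) in TMP269 against DsRed. Median-ratio and quantile scaling moved the median log2 fold change of all genes from 0.11 to −0.01 and −0.03 (MGT against DsRed) and from 0.22 to −0.01 and 0.03 (TMP269 against DsRed), and the share of higher calls from 66.1% to 56.1% and 51.2%, and from 64.7% to 47.1% and 50.7%. Deviations of same-numbered libraries from their group means had r from −0.0698 to 0.132 over 9 pairs, 1 above 0.1. Libraries of different numbers had r from −0.135 to 0.0804 over 18 pairs. From 3 libraries per group it cannot be told whether same-numbered libraries share a culture, animal or batch. With a replicate block 6 members were higher and 2 lower for MGT against DsRed (1418 genes called), 1 and 4 for TMP269 against MGT (947 genes) and 7 and 7 for TMP269 against DsRed (2679 genes). Depth is unknown, so levels near 1 TPM carry an error that cannot be stated.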
